A study of Mus musculus with 14 samples.

Results

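Expression of complement genes was examined in cardiac fibroblasts of the Tcf21 lineage before and after myocardial infarction (MI). The 8 genes were taken by name: Masp1, C2, C4b, Cfb, C3, C7, Serping1 and Cd55. Together they cover the start of the lectin pathway, the enzymes that cleave C3, C3 itself, the membrane attack complex and 2 inhibitors. Of the 8 genes, 7 had a row under their own symbol among the 19494 genes tested. C3 had no such row and was not analysed here.

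Complement is a cascade of plasma and tissue proteins that marks cells and debris for removal, recruits leukocytes and can lyse membranes. The classical and lectin pathways both cut C4 and C2 into an enzyme that cleaves C3, and the alternative pathway builds a second such enzyme with factor B. The later steps assemble C5 to C9 into a pore, and inhibitors in plasma and on host cells hold the cascade in check. The liver makes most circulating complement, but fibroblasts and other stromal cells also transcribe many of its genes, and complement is known to be activated in infarcted myocardium.

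All mice carried the genotype TCF21-MerCreMer;R26GFP on a C57BL/6 background and were given tamoxifen, so the uninjured hearts carried the same alleles and drug. The MerCreMer protein was expressed from the Tcf21 locus, and cells in which it was active at labelling keep EGFP afterwards, whether or not they still express Tcf21. Cells from other sources that enter the infarct are outside this label. MI was made by permanent ligation of the left coronary artery. Uninjured fibroblasts came from the left ventricle (3 arrays), and the other fibroblasts came from the infarct area 3 days (3 arrays), 7 days (3 arrays), 2 weeks (2 arrays) and 4 weeks (3 arrays) after MI. The uninjured and infarcted groups therefore also differ in the tissue sampled, and time after MI cannot be told apart from that for any comparison with uninjured hearts. EGFP+ cells were sorted with gates set on EGFP- WT cells, about 50000 sorted cells gave each RNA extract, and the RNA was hybridized to Clariom S Mouse arrays. The labels call the arrays of a group biological replicates, and neither the ages of these mice nor any pooling of hearts is given there.

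Signals are on a log2 scale, so a difference of 1 is a doubling, and values of different genes cannot be ranked against each other because each gene has its own probes. A signal of 5.89 served as the background level, a level that 95% of 1410 odorant and pheromone receptor genes stayed under. Between 10744 and 11306 genes per array lay above it, and arrays of a group correlated at 0.971 to 0.992. Differences were tested with limma in 1 fit of all 14 arrays, p values were adjusted by Benjamini-Hochberg over all 19494 genes of a comparison, and an adjusted p under 0.05 is a pass. Of 8 fibroblast markers 7 were measured, and all 7 exceeded background in every group mean. Their levels moved in both directions. Against uninjured fibroblasts 2 were higher and 3 lower at 3 days, when 12.5% of all genes passed. At 7 days 2 were higher and 2 lower (8.11% of all genes), and likewise at 2 weeks (2.48%). At 4 weeks 1 was higher and 0 were lower (1.91%). Tcf21 itself was lower at 3 days (log2 difference -2.35), 7 days (-1.99) and 2 weeks (-1.45). The 5 arrays numbered 1 differed from the other 9 in 7075 genes. Among the complement genes this difference passed the test for Cfb, 0.82 higher in the arrays numbered 1 (adjusted p = 0.0204, limma). Calls of the 7 complement genes that changed when these arrays were left out are given both ways.

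Of the 7 complement genes, 6 differed among the 5 groups in limma's F test, in which 15.4% of all genes passed. The exception was Cfb (adjusted p = 0.246). All 7 lay above background in at least 1 group mean, as did 11960 of all genes. With only those 11960 genes tested, 6 of the 7 passed, and 3190 of the 11960. Without the 5 arrays numbered 1 all 7 passed, with 4267 of all genes in place of 2996. In an ordinary F test, without limma's moderation, 4 of the 7 passed, and 2228 of all genes. The genes differed in timing. C7, Serping1 and Cd55 were low at 3 and 7 days. C7 was still low at 2 weeks, though that difference did not pass (-2.74, limma adjusted p = 0.0603). Masp1 was high at 3 and 7 days. C4b and C2 were high at 4 weeks, C4b already at 2 weeks.

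**Figure D1:**
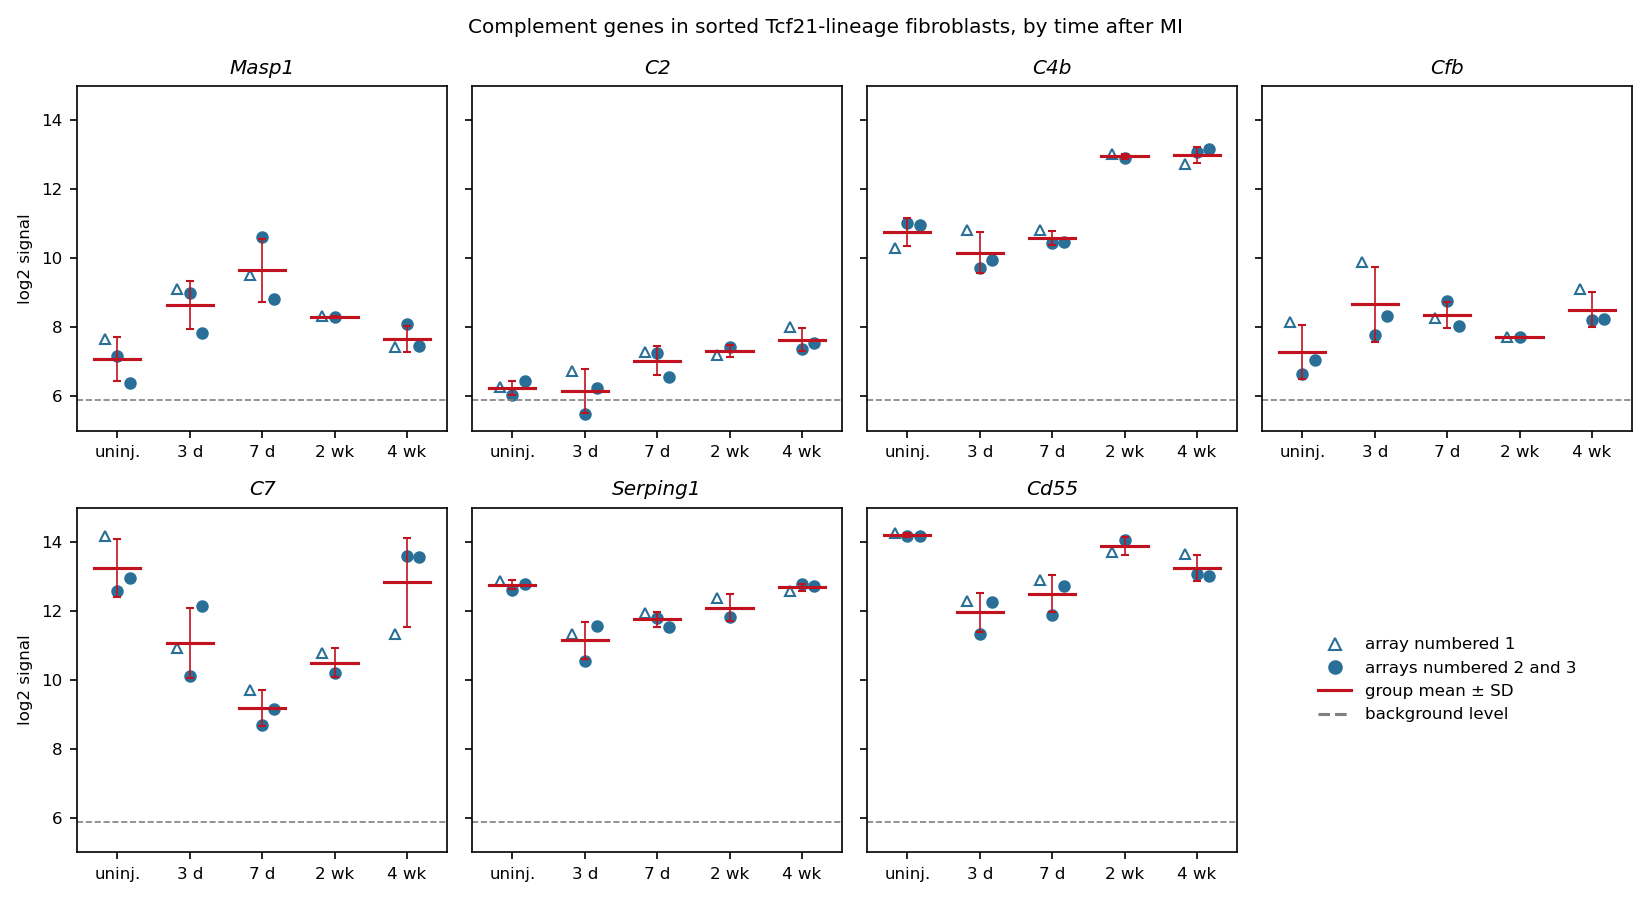
Log2 signal of each measured complement gene (vertical axis) in every array, by time after MI (horizontal axis). Open triangles are arrays numbered 1, filled circles are arrays numbered 2 and 3, red lines are group means with SD, and the dashed line is the background level of 5.89. C7, Serping1 and Cd55 dip at 3 and 7 days, and C7 is still low at 2 weeks. Masp1 peaks at 7 days, and C4b lies near 13 at 2 and 4 weeks.

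Masp1 encodes the serine proteases MASP-1 and MASP-3, which circulate with mannose-binding lectin, ficolins and collectins. MASP-1 starts the lectin pathway, and MASP-3 is known to cleave pro-factor D. The single row for the gene cannot tell these splice forms apart. Its signal was 7.67, 7.17 and 6.39 in uninjured fibroblasts, 9.11, 9.0 and 7.85 at 3 days, 9.52, 10.63 and 8.83 at 7 days, 8.32 and 8.30 at 2 weeks, followed by 7.44, 8.09 and 7.46 at 4 weeks. Every 3-day, 7-day and 2-week array was above every uninjured array, while the 4-week arrays overlapped them. Masp1 was 2.98-fold higher at 3 days (log2 difference 1.58 ± 0.45 SE, adjusted p = 0.0353) and 5.98-fold higher at 7 days (2.58 ± 0.45, adjusted p = 0.00237) than in uninjured fibroblasts. At 4 weeks it was 3.98-fold lower than at 7 days (log2 difference -1.99 ± 0.45, adjusted p = 0.0227). The difference at 2 weeks was 1.23 (95% interval 0.14 to 2.32, adjusted p = 0.331), and at 4 weeks 0.59 (-0.39 to 1.56, adjusted p = 0.921).

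The 7-day call of Masp1 held without any 1 array and without the arrays numbered 1 (2.95, adjusted p = 0.00631). The 3-day call did not hold without uninjured replicate 2 (adjusted p = 0.084), uninjured replicate 3 (0.156), 3-day replicate 1 (0.138), 3-day replicate 2 (0.135), or the 5 arrays numbered 1 (1.64, adjusted p = 0.0706). The fall in Masp1 at 4 weeks against 7 days was lost without 7-day replicate 2 (adjusted p = 0.0991), 4-week replicate 1 (0.066), 4-week replicate 3 (0.0846) or the arrays numbered 1 (-1.95, adjusted p = 0.0647), and in a fit of those groups alone (0.0645).

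C2 is the serine protease that pairs with C4b in the enzyme of the classical and lectin pathways that cleaves C3. It was close to background, with 6.27, 6.03 and 6.43 in uninjured fibroblasts, 6.74, 5.48 and 6.24 at 3 days, 7.29, 7.27 and 6.55 at 7 days, 7.20 and 7.43 at 2 weeks, followed by 8.01, 7.37 and 7.54 at 4 weeks. From 7 days onward no array overlapped the uninjured ones, and 1 array at 3 days was below background. C2 was 2.63-fold higher at 4 weeks than in uninjured fibroblasts (log2 difference 1.39 ± 0.31 SE, adjusted p = 0.0334). It was also 2.80-fold higher at 4 weeks than at 3 days (1.49 ± 0.31, adjusted p = 0.00534). The differences from uninjured fibroblasts were -0.09 at 3 days (adjusted p = 0.936), then 0.79 at 7 days (0.173) and 1.07 by 2 weeks (0.162). The 4-week call against uninjured fibroblasts was lost without uninjured replicate 1 (adjusted p = 0.0738), 2 (0.153) or 3 (0.0755), 3-day replicate 3 (0.0516), 2-week replicate 1 or 2 (0.0521 each), or 4-week replicate 1 (0.143), 2 (0.0557) or 3 (0.0815). It was also lost without the 5 arrays numbered 1 (1.22, adjusted p = 0.0851), while the difference from 3 days held there (1.59, adjusted p = 0.00662).

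C4b encodes complement C4, whose large fragment binds covalently to surfaces and anchors the same enzyme. Its signal was 10.30, 11.03 and 10.97 in uninjured fibroblasts, 10.83, 9.72 and 9.96 at 3 days, and 10.83, 10.46 and 10.49 at 7 days, against 13.02 and 12.91 at 2 weeks and 12.75, 13.09 and 13.19 at 4 weeks. The 5 arrays from 2 and 4 weeks were all above the 9 others, with no overlap. C4b was 4.59-fold higher at 2 weeks (log2 difference 2.20 ± 0.32 SE, adjusted p = 0.00164) and 4.74-fold higher at 4 weeks (2.24 ± 0.29, adjusted p = 0.000718) than in uninjured fibroblasts. The step lay between 7 days and 2 weeks: C4b was 5.18-fold higher at 2 weeks than at 7 days (2.37 ± 0.32, adjusted p = 0.00235). Between 2 and 4 weeks the difference was 0.05 (95% interval -0.64 to 0.74).

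At 3 days the difference in C4b from uninjured fibroblasts was -0.60 (adjusted p = 0.238). Replicate 1 was the lowest of the uninjured arrays and the highest of the 3-day arrays. Without 3-day replicate 1 the difference was -0.93 (limma adjusted p = 0.0399), and without all 5 arrays numbered 1 it was -1.16 (adjusted p = 0.00319). The calls for C4b at 2 and 4 weeks held without the arrays numbered 1 (1.91, adjusted p = 0.00239, and 2.14, adjusted p = 0.00046). C4b has a near-identical copy in the mouse, C4a, known as sex-limited protein, and RNA of either gene may bind probes of the other. C4a had 7.83 and 8.13 at 2 weeks and 7.67, 8.06 and 8.82 at 4 weeks, against 4.43, 6.20 and 6.51 in uninjured fibroblasts, where its mean of 5.72 was under background. Its differences of 2.26 at 2 weeks (adjusted p = 0.0412) and 2.47 at 4 weeks (adjusted p = 0.0156) therefore cannot be taken as independent of those of C4b. Shared signal between the 2 genes was not tested. The 2-week call of C4a was lost without uninjured replicate 2 (adjusted p = 0.0616), 3-day replicate 2 (0.0511) or 3 (0.0602), 7-day replicate 2 (0.0545) or 3 (0.0577), 2-week replicate 1 (0.203) or 2 (0.326), or 4-week replicate 2 (0.0626). The 4-week call was lost without 4-week replicate 3 (0.0719), and without uninjured replicate 1 the values were 1.62 at 2 weeks (0.0484) and 1.83 at 4 weeks (0.0284).

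Cfb encodes factor B, the protease of the alternative pathway and a relative of C2. Its signal was 8.15, 6.64 and 7.05 in uninjured fibroblasts, 9.88, 7.79 and 8.32 at 3 days, 8.29, 8.78 and 8.05 at 7 days, 7.73 and 7.72 at 2 weeks, followed by 9.10, 8.21 and 8.24 at 4 weeks. The array numbered 1 was the highest of its group among uninjured, 3-day and 4-week fibroblasts, and the 4-week arrays alone did not overlap the uninjured ones. In the fit of all arrays with no block, no comparison of Cfb passed the test: the differences from uninjured fibroblasts were 1.39 at 3 days (adjusted p = 0.0878), then 1.09 at 7 days (0.261), then 0.45 at 2 weeks (0.867) and finally 1.24 at 4 weeks (0.396). With the arrays numbered 1 set against the others as a block, the 3-day difference passed at the same size (adjusted p = 0.014). Without the 5 arrays numbered 1 Cfb was higher at 3 days (1.21, adjusted p = 0.0166), 7 days (1.57, adjusted p = 0.00615) and 4 weeks (1.38, adjusted p = 0.0368). The 3-day difference also passed without uninjured replicate 1 (1.82, adjusted p = 0.0261) or 3-day replicate 2 (1.82, adjusted p = 0.0385).

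In the mouse genome Cfb and C2 are neighbours with no gene between them, and 5 protein-coding genes lie between Cfb and C4b. Of these 5 genes 4 were measured, and their differences from uninjured fibroblasts ran from -1.59 to 0.66 over the 4 times. Dxo was lower at 3 days (-1.59, adjusted p = 0.00214) and 7 days (-1.55, adjusted p = 0.00381). None of the 4 differed from uninjured fibroblasts at 2 or 4 weeks by the test. Between times, Dxo was higher at 4 weeks than at 7 days (1.3, adjusted p = 0.0204) and than at 3 days (1.34, adjusted p = 0.00695), as C4b was, while the other 3 passed in no comparison.

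C7 is a component of the membrane attack complex. It joins C5b and C6 and gives the complex its hold on the membrane. Its signal was 14.19, 12.59 and 12.95 in uninjured fibroblasts, 10.94, 10.11 and 12.15 at 3 days, 9.71, 8.68 and 9.17 at 7 days, 10.79 and 10.21 at 2 weeks, followed by 11.34, 13.59 and 13.55 at 4 weeks. All arrays from 3 days to 2 weeks were below every uninjured array, and the 4-week arrays overlapped the uninjured ones. C7 was 4.51-fold lower at 3 days (log2 difference -2.17 ± 0.63 SE, adjusted p = 0.0356) and 16.6-fold lower at 7 days (-4.06 ± 0.63, adjusted p = 0.000904) than in uninjured fibroblasts. At 4 weeks it was 12.5-fold higher than at 7 days (3.64 ± 0.63, adjusted p = 0.00417).

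The 2-week difference of C7 from uninjured fibroblasts, -2.74, did not pass (adjusted p = 0.0603), but it passed without 3-day replicate 3 (0.0482), without 4-week replicate 1 (0.0137) and without the arrays numbered 1 (-2.56, adjusted p = 0.0421). The 3-day call of C7 was lost without uninjured replicate 1 (adjusted p = 0.12) or 3 (0.0691), 3-day replicate 1 (0.101) or 2 (0.165), or the arrays numbered 1 (-1.63, adjusted p = 0.0506). Among the 4-week arrays replicate 1 stood lowest. With it the difference of C7 from uninjured fibroblasts was -0.41 (95% interval -1.76 to 0.94), and without the 5 arrays numbered 1 it was 0.80 (adjusted p = 0.534). The rise in C7 between 7 days and 4 weeks was 4.39 without 4-week replicate 1 (adjusted p = 0.000592) and 4.65 without the arrays numbered 1 (adjusted p = 0.000566).

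The promoter of C7 is shown because C7 had the largest fold among the 7 genes against uninjured fibroblasts. The 250 bases before its start, from RefSeq on GRCm38.p6, are chr15:5063774-5064023 on the minus strand, and capitals mark the motif matches described after the sequence.
C7 promoter: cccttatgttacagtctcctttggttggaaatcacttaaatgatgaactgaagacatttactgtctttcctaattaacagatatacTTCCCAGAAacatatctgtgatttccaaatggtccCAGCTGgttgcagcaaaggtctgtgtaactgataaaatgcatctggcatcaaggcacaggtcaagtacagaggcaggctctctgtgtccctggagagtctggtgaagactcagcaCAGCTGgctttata

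The window was searched on both strands for 4 motifs: the STAT site TTCNNNGAA, the core GAAANNGAA of the interferon response element, the C/EBP site TTNNGCAA, and the E-box CAGCTG, a form that basic helix-loop-helix factors such as Tcf21 are known to bind. The C7 window held 1 STAT match, beginning 164 bases before the start, and 2 E-box matches, beginning 129 and 14 bases before it, none overlapping another. Of 32851 RefSeq promoter windows of the same length, 7.02% held the STAT site, 7.13% the interferon response element, 9.56% the C/EBP site and 13.0% the E-box. A match is a run of letters and was not tested as a binding site. Promoters of 2 of the 7 measured genes, C7 and Cd55, were found in the table.

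Serping1 encodes the C1 inhibitor, which inactivates C1r, C1s and the MASP proteases, and also kallikrein. Its signal was 12.87, 12.62 and 12.79 in uninjured fibroblasts, 11.34, 10.55 and 11.55 at 3 days, 11.95, 11.79 and 11.52 at 7 days, 12.37 and 11.81 at 2 weeks, followed by 12.57, 12.78 and 12.71 at 4 weeks. All arrays from 3 days to 2 weeks were below every uninjured array, and the 4-week arrays overlapped the uninjured ones. Serping1 was 3.05-fold lower at 3 days (log2 difference -1.61 ± 0.26 SE, adjusted p = 0.000725) and 2.00-fold lower at 7 days (-1.0 ± 0.26, adjusted p = 0.0261) than in uninjured fibroblasts. It was 2.9-fold higher at 4 weeks than at 3 days (1.54 ± 0.26, adjusted p = 0.00111). At 4 weeks the difference from uninjured fibroblasts was -0.07, with a 95% interval of -0.62 to 0.48.

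The 3-day call of Serping1 held without the arrays numbered 1 (-1.65, adjusted p = 0.00395). The 7-day call was lost without uninjured replicate 1 (adjusted p = 0.0718), 2 (0.0551) or 3 (0.0767), without 7-day replicate 2 (0.0692) or 3 (0.116), and without the arrays numbered 1 (-1.05, adjusted p = 0.0527). The size of that difference lay between -1.07 and -0.89 in these fits.

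Cd55 encodes decay-accelerating factor, a lipid-anchored protein that takes apart the enzymes that cleave C3 and C5 on the cell's own surface. Its signal was 14.26, 14.17 and 14.16 in uninjured fibroblasts, 12.29, 11.32 and 12.27 at 3 days, 12.91, 11.88 and 12.72 at 7 days, 13.70 and 14.06 at 2 weeks, followed by 13.66, 13.06 and 13.00 at 4 weeks. The uninjured arrays lay close together and above every array after MI. Cd55 was 4.72-fold lower at 3 days (log2 difference -2.24 ± 0.31 SE, adjusted p = 3e-04) and 3.23-fold lower at 7 days (-1.69 ± 0.31, adjusted p = 0.0035) than in uninjured fibroblasts. Both calls held without any 1 array and without the arrays numbered 1 (-2.37, adjusted p = 0.000955, and -1.87, adjusted p = 0.00536).

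At 4 weeks Cd55 was 2.44-fold higher than at 3 days (log2 difference 1.28 ± 0.31, adjusted p = 0.0147), a call that was lost without 3-day replicate 2 (0.96, adjusted p = 0.0763) or 4-week replicate 1 (1.07, adjusted p = 0.0563). The difference of Cd55 at 4 weeks from uninjured fibroblasts was -0.95 (95% interval -1.63 to -0.28, adjusted p = 0.22), and at 2 weeks it was -0.32 (adjusted p = 0.847). Its neighbour and close copy Cd55b was lower at 3 days (-2.65, adjusted p = 0.000214) and 7 days (-2.25, adjusted p = 0.00114), and RNA of either gene may bind probes of the other.

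The Cd55 promoter is shown for contrast with that of C7, and held none of the 4 motifs, so it has no capitals. The 250 bases from RefSeq on GRCm38.p6 are chr1:130462745-130462994 on the minus strand.
Cd55 promoter: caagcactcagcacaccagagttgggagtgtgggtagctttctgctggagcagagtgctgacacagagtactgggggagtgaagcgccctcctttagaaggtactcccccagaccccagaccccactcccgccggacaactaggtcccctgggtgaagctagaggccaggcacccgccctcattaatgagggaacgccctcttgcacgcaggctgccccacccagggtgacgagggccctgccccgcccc

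**Figure D2:**
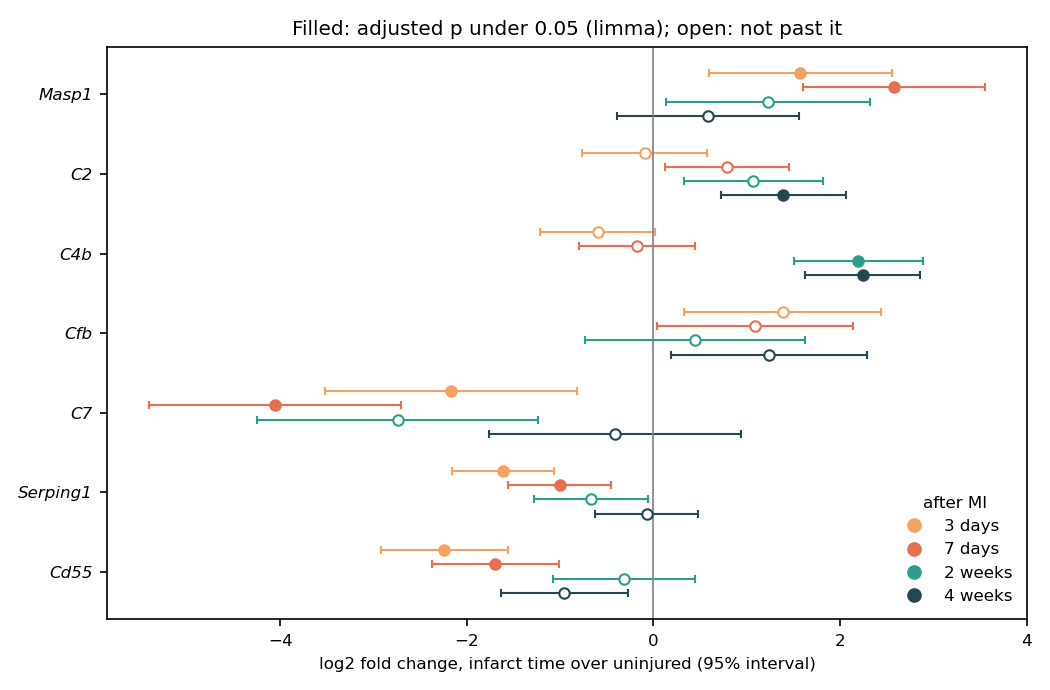
Log2 fold change of each gene against uninjured fibroblasts (horizontal axis) at 3 and 7 days and at 2 and 4 weeks after MI, with 95% intervals from the fit of all 14 arrays. Filled points passed an adjusted p under 0.05 in limma. C7 reaches -4.06 and Masp1 2.58 at 7 days, while C4b reaches 2.20 and 2.24 at 2 and 4 weeks.

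Counted over the 7 measured genes, 4 passed the test against uninjured fibroblasts at 3 days, when 12.5% of all genes passed. Masp1 was higher, and C7, Serping1 and Cd55 were lower. The same 4 genes passed in the same directions at 7 days, when 8.11% of all genes passed. At 2 weeks 1 gene passed, C4b, against 2.48% of all genes, and at 4 weeks 2 genes passed, C2 and C4b, against 1.91%. With only the 11960 genes above background tested, 2657 of them passed at 3 days and 1673 at 7 days. At 2 weeks 558 of them passed, and at 4 weeks 407. Of the complement genes 4, 4, 2 and 2 passed there in the same order of times. The median log2 difference of the 7 genes was -0.60 at 3 days, then -0.18 at 7 days, then 0.45 at 2 weeks and finally 0.59 at 4 weeks, while the median over all genes lay between -0.023 and 0.017. Without the 5 arrays numbered 1, 4 genes passed at 3 days, namely Cfb, which was higher, and C4b, Serping1 and Cd55, which were lower. In that fit 3345 of all genes passed at 3 days, against 2446 with all arrays, then 2172 against 1581 at 7 days, 1044 against 484 at 2 weeks and 481 against 372 at 4 weeks. Of the complement genes 4 passed at 7 days, Masp1 and Cfb higher and C7 and Cd55 lower, 2 at 2 weeks, C4b higher and C7 lower, and 2 at 4 weeks, C4b and Cfb, both higher. Without uninjured replicate 3, 2 genes passed at 3 days, Serping1 and Cd55, and 1808 of all genes.

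Between successive times fewer complement genes differed. None of the 7 passed for 7 days against 3 days, where 6.48% of all genes passed. An unadjusted limma p under 0.05 was seen for 4 of the 7, and for 3476 of all 19494 genes. Among the 4 complement genes, the smallest p values belonged to C7 (-1.88, unadjusted p = 0.00973) and C2 (0.88, 0.0131). The C7 difference passed without 4-week replicate 1 (adjusted p = 0.034) and without the 5 arrays numbered 1 (-2.21, adjusted p = 0.0214). Only C4b passed for 2 weeks against 7 days, where 1.59% of all genes passed. Cd55 was 1.38 higher there (adjusted p = 0.0697), and passed without 3-day replicate 2 (0.0459), without 7-day replicate 1 (1.58, adjusted p = 0.0428), without the 5 arrays numbered 1 (1.76, adjusted p = 0.0412) and with those arrays as a block (1.32, adjusted p = 0.0284). None passed for 4 weeks against 2 weeks, where 0.0256% of all genes passed. There 1 of the 7 genes, C7, had an unadjusted limma p under 0.05 (2.33, unadjusted p = 0.00527), as had 949 of all 19494 genes.

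Between distant times, 3 of the 7 genes passed for 4 weeks against 7 days, where 4.36% of all genes passed: C4b and C7 were higher, and Masp1 was lower. For 4 weeks against 3 days 4 passed, all higher, where 12.7% of all genes passed in either direction and 5.85% were higher. These were C2, C4b, Serping1 and Cd55. C7 was 1.76 higher at 4 weeks than at 3 days (adjusted p = 0.0914), and this difference passed without 3-day replicate 3 (2.3, adjusted p = 0.037), without 4-week replicate 1 (2.50, adjusted p = 0.00863) and without the arrays numbered 1 (2.44, adjusted p = 0.00834). Serping1 at 4 weeks against 7 days was 0.93 higher (adjusted p = 0.059), and passed without 3-day replicate 2 (0.0232) or 3 (0.0496) and with the arrays numbered 1 as a block (0.0231).

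Of 48 other complement genes on a list written from general knowledge, 46 were measured, and 29 of these lay above background in at least 1 group mean. At 3 days 1 was higher and 7 were lower than in uninjured fibroblasts, when 12.5% of all genes passed in either direction. C1r and C1s are the proteases of the C1 complex and the targets of the C1 inhibitor, and all 4 mouse genes for them were lower at 3 days. C1ra had 13.50, 12.23 and 12.90 at 3 days, against 14.49, 14.66 and 14.55 in uninjured fibroblasts (log2 difference -1.69, adjusted p = 0.00112). C1s1 had 12.58, 11.24 and 11.56 at 3 days, against 13.46, 13.35 and 13.23 in uninjured fibroblasts (-1.55, adjusted p = 0.003). C1rb (-1.58) and C1s2 (-1.39) were their close copies and may share signal with them, and C1s2 was under background at 3 days. By 4 weeks the differences of C1ra, C1rb, C1s1 and C1s2 from 3 days were 1.84, 1.74, 1.54 and 1.11, and all 4 passed (adjusted p 0.000212 to 0.00327).

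Vtn encodes vitronectin, which binds the nascent membrane attack complex and keeps it in solution. It was lower at each of the 4 times, with log2 differences of -2.29 at 3 days (adjusted p = 0.000456), then -1.99 at 7 days (0.00195), then -2.21 at 2 weeks (0.0056) and finally -2.38 at 4 weeks (0.00155). The 2-week call was lost without 2-week replicate 2 (-2.04, adjusted p = 0.101). Cr1l, which encodes the rodent membrane regulator Crry, was 1.55-fold lower at 3 days (-0.63, adjusted p = 0.0389). That call was lost without any 1 of the uninjured or 3-day arrays, either 2-week array or 4-week replicate 3 (adjusted p 0.0511 to 0.107). Cfi, the protease that degrades C3b and C4b, was the 1 gene called higher at 3 days, but its means, 5.41 at 3 days and 4.28 in uninjured fibroblasts, were both under background.

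At 7 days 8 of the 46 other genes were higher and 4 were lower than in uninjured fibroblasts, when 8.11% of all genes passed. The rises included the 3 recognition subunits of the C1 complex. C1qa had 13.73, 11.86 and 13.60 at 7 days, against 5.86, 7.06 and 6.91 in uninjured fibroblasts (log2 difference 6.46, adjusted p = 5.49e-05). C1qb averaged 9.47 and C1qc 7.59 at 7 days, against 5.57 and 4.49 in uninjured fibroblasts, both under background. The anaphylatoxin receptor C3ar1 had 11.44, 6.74 and 9.18 at 7 days, against 4.74, 4.51 and 4.76 in uninjured fibroblasts, all under background (log2 difference 4.45, adjusted p = 0.00636). The integrin chains Itgam and Itgb2, which form complement receptor 3, were higher by 2.17 and 1.41. Itgam was under background in uninjured fibroblasts, and Itgb2 in both group means. Cfp, which encodes properdin, the stabilizer of the alternative pathway enzyme, was higher by 1.64 (adjusted p = 0.0183), and Cd59b, an inhibitor of the membrane attack complex, by 1.38 (adjusted p = 0.0156). C1rb, C1s2, Vtn and Cd55b were lower.

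Some of these calls rested on single arrays. Leaving out 7-day replicate 2 moved C1qa to 7.06, C1qb to 4.56, C1qc to 3.75 and C3ar1 to 5.64, and leaving out 7-day replicate 1 moved C3ar1 to 3.29. Without the 5 arrays numbered 1, C1qa was 5.75, C3ar1 3.33 and Itgam 1.5 higher at 7 days, all still past the test, while C1rb at 7 days (-0.91, adjusted p = 0.0891), Cr1l at 3 days (-0.56, 0.114) and Cfi at 3 days (0.85, 0.0539) were lost. Cfp was lost without uninjured replicate 3 (adjusted p = 0.0772) or 7-day replicate 1 (0.0694) or 3 (0.0842). Cd59b was lost without uninjured replicate 2 (0.0708) or 3 (0.0696) or 7-day replicate 2 (0.0643) or 3 (0.0642). Itgb2 was lost without 7-day replicate 3 (0.0551). C1rb at 7 days was lost without any 1 of the uninjured or 7-day arrays, either 2-week array or 4-week replicate 2 (0.0504 to 0.159).

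**Figure D3:**
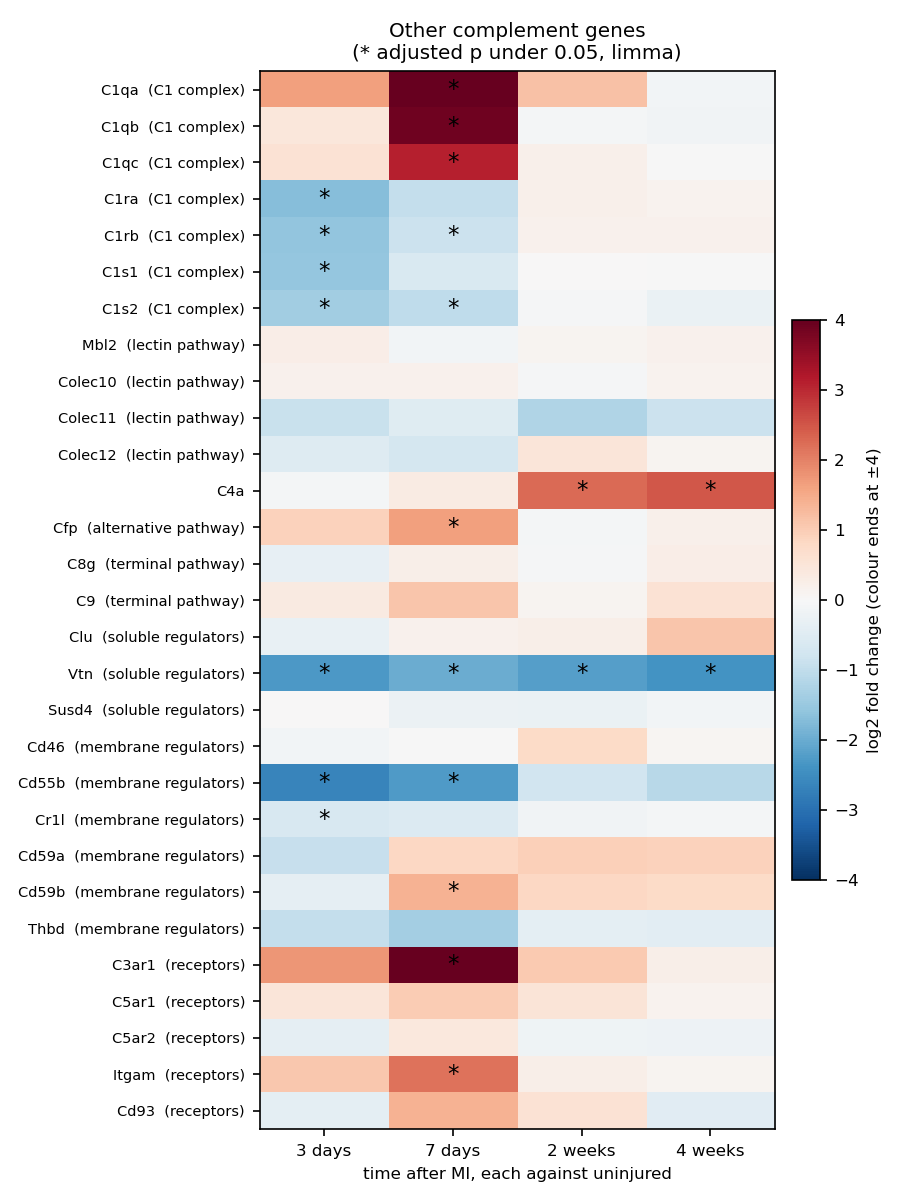
Log2 fold change against uninjured fibroblasts (colour, red higher and blue lower, ending at ±4) of the 29 other complement genes above background in at least 1 group mean, in rows with their list, at the 4 times after MI, in columns. Stars mark an adjusted p under 0.05 in limma. C1qa, C1qb, C1qc and C3ar1 are red at 7 days, C1ra, C1rb, C1s1 and C1s2 are blue at 3 days, C4a is red at 2 and 4 weeks, and Vtn is blue throughout.

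Macrophages are a main source of C1q and carry C3ar1, and their markers moved with these genes. Of 12 macrophage markers 11 were measured and 8 were higher at 7 days, among them Lyz2, Tyrobp, Laptm5 and Csf1r. Of all genes 8.11% passed at that time. The log2 of the summed signal of the 11 genes was 9.10 to 9.52 in uninjured fibroblasts, 9.60 to 11.3 at 3 days, then 12.6 to 15.2 at 7 days, then 10.0 to 10.7 at 2 weeks and finally 9.07 to 10.0 at 4 weeks. At 7 days 10 of the 11 lay above background in the group mean, against 5 in uninjured fibroblasts. The part of these cells in the 7-day rises of C1qa, C1qb, C1qc, C3ar1, Itgam, Itgb2 and Cfp was not tested.

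For the 7 genes of interest the arrays at 7 days can be set beside that sum, which was 15.2, 12.6 and 14.2 in replicates 1, 2 and 3. C2, C4b, C7, Serping1 and Cd55 were highest in replicate 1, which had the highest macrophage sum of the 3. Masp1 and Cfb were highest in replicate 2, which had the lowest. Replicate 1 is also an array numbered 1, a set that differed from the other arrays in 7075 genes. The macrophage sum and this set cannot be told apart in these 3 arrays. The lowest value was in replicate 2 for C4b, C7 and Cd55, and in replicate 3 for C2, Cfb, Serping1 and Masp1. The part of macrophages in the 7-day values of these genes was not tested. At 2 and 4 weeks none of the 11 macrophage markers passed the test. Their median log2 difference from uninjured fibroblasts was 0.81 at 2 weeks and 0.12 at 4 weeks. The part of macrophages in the C4b values at 2 and 4 weeks was not tested. Of 6 endothelial markers 2, Tek and Tie1, were lower at 3 days, when 12.5% of all genes passed. At 7 days 1 was lower, when 8.11% of all genes passed. The log2 sum was 9.21 to 10.2 at 3 days, against 12.3 to 12.6 in uninjured fibroblasts. At 2 weeks the endothelial sum was 13.0 in replicate 1 and 9.55 in replicate 2, and C4b was 13.02 and 12.91 in the same arrays. In the lists for neutrophils, lymphocytes, pericytes and smooth muscle, epicardium and mesothelium, Schwann cells and cardiomyocytes, no more than 1 marker per list passed at any time against uninjured fibroblasts. At 3 days 1 neutrophil marker was higher and 1 cardiomyocyte marker was lower. The same counts held at 7 days, when 1 pericyte or smooth muscle marker was also lower. The part of endothelial cells in the lower C7, Serping1 and Cd55 at 3 days was not tested. In RNA of sorted cells, fewer cells that express a gene and less RNA per cell cannot be told apart.

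**Figure D4:**
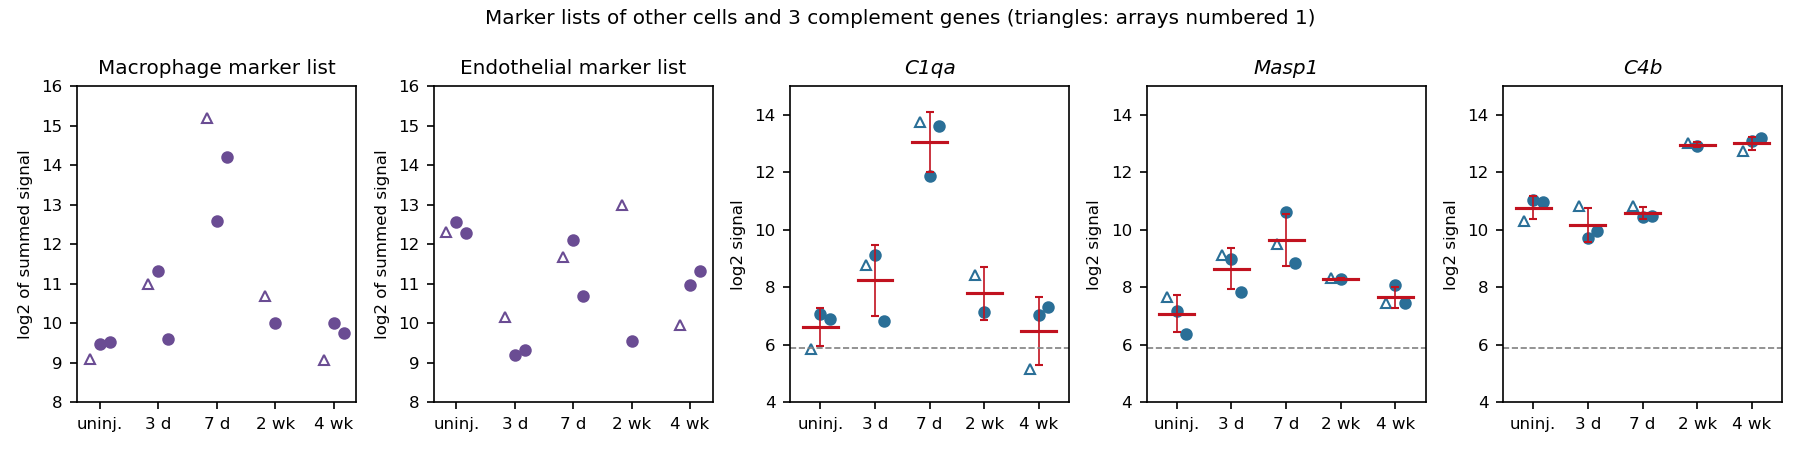
The first 2 panels plot the log2 of the summed signal of the macrophage and endothelial marker lists in each array by time after MI, and the other 3 plot the log2 signal of C1qa, Masp1 and C4b with group means and SD. Triangles are arrays numbered 1 and the dashed line is the background level of 5.89. The macrophage sum and C1qa peak at 7 days. Among the 7-day arrays Masp1 is highest where the macrophage sum is lowest. Among the same arrays C4b is highest where the sum is highest, in the array numbered 1. At 2 and 4 weeks C4b is high, and the macrophage sum is 9.07 to 10.7, against 9.10 to 9.52 in uninjured arrays.

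Cytokines such as interleukin-1, interleukin-6, tumour necrosis factor and the interferons are known to induce complement genes through NF-kappaB, C/EBP, STAT and IRF factors. Of 26 genes for such ligands, receptors and factors, 24 were measured. At 3 days 1 was higher and 4 were lower than in uninjured fibroblasts, and at 7 days again 1 was higher and 4 were lower. Of all genes 12.5% passed at 3 days and 8.11% at 7 days. The interferon regulatory factor Irf1 had 8.59, 8.30 and 9.25 at 3 days, against 11.06, 12.02 and 11.85 in uninjured fibroblasts (log2 difference -2.93, adjusted p = 3.82e-05), and was lower at 7 days as well (-2.21, adjusted p = 0.000551). Irf9, Cebpd and the interleukin-6 receptor Il6ra were lower at both times, with log2 differences of -2.62 at 3 days and -2.75 at 7 days for Cebpd. The interleukin-1 receptor Il1r1 was 4.64-fold higher at 3 days (2.21, adjusted p = 0.00076). Interleukin-1 itself, as Il1b, was higher at 7 days (1.89, adjusted p = 0.0134), a call lost without 7-day replicate 3 (0.0639) or uninjured replicate 1 (0.0545). The 3-day call of Il6ra was lost without 3-day replicate 2 (0.0639), and its 7-day call without 7-day replicate 2 (0.101) or 3 (0.0566) or uninjured replicate 1 (0.0777). None of the 24 passed at 2 or 4 weeks, though the means of some moved. At 2 weeks Il1r1 averaged 13.40, against 12.13 in uninjured fibroblasts, and Irf1 10.34, against 11.64. The part of these genes in the C4b values was not tested.

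Genes of the acute phase response were also counted at each time. Of 8 such genes 5 were higher at 3 days, when 12.5% of all genes passed: Serpina3n, Lcn2, Saa3, Hp and Pros1. Serpina3n, a serine protease inhibitor, was 9.04-fold higher (adjusted p = 3.07e-05). Lcn2, which encodes lipocalin-2, had 12.53, 7.91 and 10.45 at 3 days, against 4.71, 5.14 and 4.57 in uninjured fibroblasts, where it was under background. At 7 days Serpina3n and the haptoglobin gene Hp, also under background in uninjured fibroblasts, were still higher, and the ceruloplasmin gene Cp was lower (-1.93, adjusted p = 0.0411). At 4 weeks Serpina3n remained 4.18-fold higher (adjusted p = 0.00438). Leaving out 3-day replicate 1 or 2 gave log2 differences at 3 days of 4.37 or 6.68 for Lcn2, against 5.49 with all arrays, of 2.85 or 5.27 for Saa3, against 3.92, and of 4.97 or 6.4 for Hp, against 5.57. The Cp call was lost without uninjured replicate 1 (adjusted p = 0.148) or 2 (0.0616), 3-day replicate 2 (0.0504) or 3 (0.0577), 7-day replicate 2 (0.163) or 3 (0.19), either 2-week array (0.0568 each) or 4-week replicate 2 (0.059), and without 7-day replicate 1 it was -2.56 (0.00432).

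For each of the 7 genes the 3 genes with the most similar signal over the 14 arrays were sought among 11554 named genes above background. The arrays of a group share their condition, so these correlations describe likeness and carry no test. C4b was most like Cilp2 (Pearson r = 0.935), its copy C4a (0.935) and Faim2 (0.919). Serping1 was most like Pi16 (0.967), a marker of a fibroblast subset in many tissues, then Lrch3 (0.956) and Pmp22 (0.949). Cd55 was most like Cd55b (0.971), Dnajb9 (0.946) and Sirt1 (0.944). C7 was most like Tnfaip2 (0.942), Hsd11b1 (0.915), which encodes an enzyme that activates glucocorticoids, and Cdk8 (0.909). Masp1 was most like Dzip1l (0.915), the fibrillar collagen gene Col5a2 (0.907) and Plxnb2 (0.904), and C2 like P2rx7 (0.933), Oxt (0.92) and Pla2g15 (0.889). Cfb had the weakest matches, with Agbl5 (0.832), Srpr (0.821) and Tln1 (0.812).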

How the data were processed

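Sorted EGFP+ cells of the Tcf21 lineage gave total RNA, from which biotinylated targets for Clariom S Mouse arrays were made (GeneChip Pico chemistry). The labels name Trizol for extraction and the study's methods a column kit. The values are log2 signals per transcript cluster as deposited by the authors. The submitters' processing notes name Affymetrix Expression Console; the version, the summarization method and the genome build are not given in the sources used here. Of 28846 rows, 6640 control rows and 64 unplaced rows were left out. Of the 22142 others 19527 had 1 gene symbol in the platform annotation and 2615 had none, and for 33 genes with several rows the brightest row on average stood for the gene, giving 19494 genes. The deposited normalization was kept.

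A linear model of the 5 group means (limma 3.58.1 under R 4.3.3, lmFit and eBayes, 14 arrays, no covariate) gave every test, with Benjamini-Hochberg adjustment over all genes of each comparison at 0.05. Precision is limited by 2 or 3 arrays per group. Where arrays of a group share an undocumented source, p values measure only their spread. The script was tested on simulated data. All complement genes of the rule were named, other listed genes where they passed a test against uninjured fibroblasts or for their count, and the 3 most alike genes by correlation. The genes and lists were chosen with earlier results of these data known. Alternatives were a block for replicate number or for the arrays numbered 1, leaving those arrays out, a fit of only the groups compared, median centring, quantile normalization, a background filter, array weights, an F test without moderation, and leaving out each array. For the other named genes these alternatives were added after seeing the data. Promoters came from RefSeq.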

Additional observations from a re-analysis of the deposited data

Results flagged for a closer look

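The difference from uninjured fibroblasts was itself different between times for 6 of the 7 genes, by the test of one time against another in limma. Of all genes 1.59% passed for 2 weeks against 7 days, 4.36% for 4 weeks against 7 days and 12.7% for 4 weeks against 3 days. C4b was 2.37 higher on the log2 scale at 2 weeks than at 7 days, 2.42 higher at 4 weeks than at 7 days, and 2.84 higher at 4 weeks than at 3 days. C7 was 3.64 higher at 4 weeks than at 7 days. Masp1 had a log2 difference of -1.99 for 4 weeks against 7 days. That call was lost without 7-day replicate 2, 4-week replicate 1 or 3, or the arrays numbered 1. It was also lost in a fit of those groups alone. Against 3 days, C2 was 1.49 higher, Serping1 1.54 higher and Cd55 1.28 higher at 4 weeks. The Cd55 call was lost without 3-day replicate 2 or 4-week replicate 1. No group holds 4 arrays or more, so single arrays within a group were not examined for a gap to the others.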

How the results depend on the processing

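The 19 comparisons of single complement genes that passed the test gave 418 values under the alternatives. Of these 385 passed in the same direction, 33 no longer passed and 0 changed direction. Some settings left out an array of a group not compared, which cannot change the difference itself, so this share does not measure stability. The losses were uneven, as described for C2 at 4 weeks and Serping1 at 7 days. Among complement comparisons that had not passed, 47 values passed under an alternative. For the other named genes 883 of 944 values still passed and 61 did not. Counts of complement genes past the threshold changed by over 1.5 times as follows, and in these settings the count over all genes moved too. For 2 weeks against uninjured fibroblasts 2 complement genes passed in place of 1 with the arrays numbered 1 as a block (967 of all genes, against 484), without those arrays (1044), in a fit of only the groups compared (394) and with the background filter (558), and 3 with array weights (1646). For 4 weeks against uninjured fibroblasts 4 passed in place of 2 with array weights (1113 of all genes, against 372). For 7 days against 3 days 1 passed in place of 0 with the arrays numbered 1 as a block (2528 of all genes, against 1264), without those arrays (2004) and with array weights (2348). This gene was C2, higher, with the block, and C7, lower, without those arrays and with array weights. For 2 weeks against 7 days 2 passed in place of 1 in the same 3 settings (1047, 953 and 1399 of all genes, against 310). For 4 weeks against 2 weeks 1 passed in place of 0 with array weights (77 of all genes, against 5). The weights ran from 0.346 for uninjured replicate 1 to 2.78 for 4-week replicate 2. The cause of these differences was not tested.

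Leaving out 1 array in turn gave 2 to 4 complement genes at 3 days (1739 to 2680 of all genes), 3 to 4 at 7 days (1073 to 1713), 1 to 2 at 2 weeks (154 to 804) and 1 to 2 at 4 weeks (236 to 372), each against uninjured fibroblasts. It gave 0 to 1 for 7 days against 3 days (645 to 1443), 1 to 2 for 2 weeks against 7 days (43 to 494), 0 for 4 weeks against 2 weeks (0 to 15), 2 to 4 for 4 weeks against 7 days (485 to 970), 3 to 5 for 4 weeks against 3 days (1715 to 2753), and 6 in the F test (2248 to 3430). Where 1 of the 2 arrays at 2 weeks was left out, the other was assumed to vary like the other groups.

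Differences that changed sign had not passed the test. For C7 at 4 weeks against uninjured fibroblasts the value was 0.80 without the arrays numbered 1 and 0.54 with array weights, and -0.79 to 0.33 on leaving out 1 array. For Serping1 there it was 0.041 and 0.050 in the same 2 settings. For C2 at 3 days against uninjured fibroblasts it ran from -0.38 to 0.24, and for C4b at 4 weeks against 2 weeks from -0.042 to 0.18, on leaving out 1 array. For Cfb, without the arrays numbered 1 and then over arrays left out in turn, it was 0.35 and -0.73 to 0.31 for 7 days against 3 days, -0.19 and -0.14 to 0.35 for 4 weeks against 7 days, and 0.17 and -0.58 to 0.46 for 4 weeks against 3 days.

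With the replicate number as a block, 1 complement gene passed in place of 0 for 7 days against 3 days (2391 of all genes, against 1264). This gene was Masp1, higher at 7 days (adjusted p = 0.0412, limma). In the same setting 3 passed in place of 1 for 2 weeks against 7 days (842 against 310). For 3 days against uninjured fibroblasts 5 passed in place of 4 (3717 against 2446), where the added gene was Cfb (adjusted p = 0.0204). Deviations of same-numbered arrays correlated at 0.316 to 0.637 for number 1, 0.0602 to 0.361 for number 2 and 0.13 to 0.538 for number 3, against -0.585 to 0.461 for different numbers, and 9 of 14 arrays correlated best with their own number. Correlations above 0.1 were seen in 10 of 10 pairs for number 1, 9 of 10 for number 2 and 6 of 6 for number 3. Pairs with different numbers exceeded 0.1 in 15 of 52 cases. Arrays of the same number thus shared deviations, and no label says what they share. The main fit has no block for the number. Genes near background, such as C2, are limited by signal.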
